A study of Mus musculus with 16 samples.

Results

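Enzymes that break down threonine, make serine and glycine and feed the folate cycle were followed in mouse induced pluripotent stem (iPS) lines, mouse embryonic fibroblasts (MEFs) and mouse embryonic stem (ES) cells. The 10 genes were Tdh, Gcat, Gldc, Phgdh, Psat1, Psph, Shmt1, Shmt2, Mthfd1 and Mthfd2. They were taken by name, as every probe whose target name on the array was that of a member, ignoring case. This gave 15 of the 46643 probes. Of the 10 genes, 9 were among the 15642 genes tested, and Psph was the 1 that was not.

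The RNA of 8 groups was hybridised to 16 arrays (Illumina MouseWG-6 version 1.1), 2 for each group. The iPS lines were OSE #T8, OSE #T9, OSCE #13, OSCE #8 and OSCK. Such letters are usually read as the factors Oct4, Sox2, c-Myc, Klf4 and the orphan nuclear receptor Esrrb, which the labels do not spell out. The 4 lines with an E in the name are called Esrrb lines here. Each number marks 1 line, OSCK is also 1 line, and the ES cells are the single line R1. The Actin-GFP MEFs expressed GFP, the green fluorescent protein, from a transgene with an Actin promoter. The Pou5f1-GFP MEFs carried GFP with the promoter of Pou5f1, which is active in pluripotent cells. The labels give no treatment of the MEFs, which grew in medium with 15% fetal bovine serum. ES cells and iPS lines shared 15% fetal bovine serum, 1000 units per ml of the self-renewal cytokine LIF, and feeder layers of MEFs stopped with mitomycin C. Their RNA can therefore hold feeder RNA. The ages of the embryos and which MEFs a line was made from are not given in the sources used here. The labels call the 2 arrays of a group biological replicates without saying that the cultures were separate, so p-values measure the spread between these arrays. The design asked how the lines made with Esrrb compare with ES cells and MEFs.

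Threonine dehydrogenase, encoded by Tdh, and Gcat together turn threonine into glycine and acetyl-CoA in the mitochondria. Gldc, a part of the glycine cleavage system, and the serine hydroxymethyltransferases Shmt1 and Shmt2 pass carbon units from glycine and serine to folate, and Phgdh, Psat1 and Psph make serine from a glycolytic intermediate. Mthfd1 in the cytosol and Mthfd2 in the mitochondria interconvert the folate-bound units used to build purines and thymidylate, and mouse ES cells are known for their need of threonine.

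The probes measure transcripts and not enzyme activity, and the probe sequences were not used here. The stretch from 250 bases before to 50 bases after an annotated start was read for 9 of the 10 genes from the RefSeq promoter table of build GRCm38.p6, with a pair of starts for Psat1, so 10 stretches in all. Shown are Gldc, which was at background in MEFs, and Psat1 (its outer start) and Mthfd2. These last were higher in MEFs than in ES cells, Psat1 on its brighter probe only. Capitals mark the CCAAT box, with its reverse complement ATTGG.
Gldc (chr19:30175392-30175691, minus strand): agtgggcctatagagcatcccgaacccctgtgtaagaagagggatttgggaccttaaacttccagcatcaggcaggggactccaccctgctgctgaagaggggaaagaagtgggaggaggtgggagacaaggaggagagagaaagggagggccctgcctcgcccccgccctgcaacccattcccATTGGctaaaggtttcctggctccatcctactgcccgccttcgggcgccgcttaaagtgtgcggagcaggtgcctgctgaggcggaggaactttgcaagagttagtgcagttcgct
Psat1 (chr19:15925010-15925309, minus strand): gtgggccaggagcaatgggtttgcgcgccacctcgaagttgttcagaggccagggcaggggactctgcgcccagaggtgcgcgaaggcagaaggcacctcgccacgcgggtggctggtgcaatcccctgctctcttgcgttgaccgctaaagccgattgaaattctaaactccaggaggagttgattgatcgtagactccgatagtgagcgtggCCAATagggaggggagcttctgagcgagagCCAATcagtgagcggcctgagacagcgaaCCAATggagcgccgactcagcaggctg
Mthfd2 (chr6:83317555-83317854, minus strand): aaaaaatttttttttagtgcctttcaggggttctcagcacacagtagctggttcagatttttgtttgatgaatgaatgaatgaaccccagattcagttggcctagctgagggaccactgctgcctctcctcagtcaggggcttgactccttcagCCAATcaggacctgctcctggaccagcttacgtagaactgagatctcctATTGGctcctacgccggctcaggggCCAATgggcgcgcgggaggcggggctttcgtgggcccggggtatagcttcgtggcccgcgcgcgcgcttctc
The CCAAT box, added to the search after the sequences had been read, lay in 7 of the 10 member stretches and in 37.4% of all 32851 stretches in the table. It lay 3 times each in those of Psat1 and Mthfd2 and once in that of Gldc. On both strands, CACGTG, an E-box that Myc and other factors bind, lay in 1 member stretch, that of Gcat, starting 2 bases past the first transcribed base, and in 7.15% of all. The search for TGATGNAA, the core of the element that ATF4 binds, found 0 of 10 member stretches and 3.97% of all. AAGGTCA, a core of the sites that Esrrb binds, found 0 and 4.72%, and ATGCAAAT, the octamer that Oct4 binds, found 0 and 1.74%. These motifs do not overlap each other in the member stretches. A match or its lack describes these letters in this window and nothing more.

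The levels below are log2 intensities after background correction and quantile normalization, and detection means a detection p under 0.01 on that array. Where a gene has several probes, the brightest represents it. Tdh, Gldc, Phgdh, Psph and Mthfd2 have no second probe on the array. A gene was called at a limma adjusted p (Benjamini-Hochberg) under 0.05, and a difference is given as log2 ± its standard error. Each array detected 35.5% to 38.8% of all probes. OSE #T8, OSE #T9 and OSCE #13 were hybridised on 2 slides with 3 arrays each, and OSCE #8, OSCK, both MEFs and the ES cells on 2 other slides with 5 arrays each. Between these sets the slide and the group cannot be told apart. Of the pluripotency marker list, 6 of 7 genes are on the array. They were detected on both arrays of ES cells and of each line. Their summed linear intensities were 9251 (OSCE #8) to 14520 in the lines and 12423 to 13414 in ES cells, against 135 to 153 in MEFs. In each MEF type, 1 of the 6 was detected on both arrays. All 9 fibroblast markers were detected in MEFs. Their summed intensity was 4672 to 6719 in the lines, 25824 to 31965 in MEFs and 3408 to 3730 in ES cells. In such bulk RNA, fewer cells of a type and less RNA per cell cannot be told apart.

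Between MEFs and ES cells, all 9 tested members were called, 5 lower and 4 higher in MEFs, beside 61% of all genes called. The median absolute difference was 1.14 for the members and 0.45 for all genes. Tdh, Gldc, Shmt1, Gcat and Mthfd1 fell in MEFs, and Mthfd2, Psat1 (on its brighter probe), Shmt2 and Phgdh rose. These are means of the MEF types, and for Mthfd1 the low values were those of Actin-GFP MEFs. In the Esrrb lines against MEFs, which uses the same MEF arrays, all 9 were called, 5 higher and 4 lower, beside 69.1% of all genes. In OSCK against MEFs the counts were 5 higher and 4 lower, beside 61.5% of all genes. The members that were higher in both were Tdh, Gldc, Shmt1, Gcat and Mthfd1. With each line or MEF type as 1 replicate, 5 of the 9 calls between MEFs and ES cells held, and those of Gcat, Phgdh, Shmt2 and Mthfd1 did not (adjusted p = 0.0922, 0.0652, 0.0946 and 0.358). In that fit Psat1 and Shmt2 were no longer called against MEFs in the Esrrb lines, nor were Psat1, Shmt2 and Mthfd2 in OSCK. ES cells and OSCK had 1 value each there, so its spread came from the Esrrb lines and the MEF types.

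**Figure D1:**
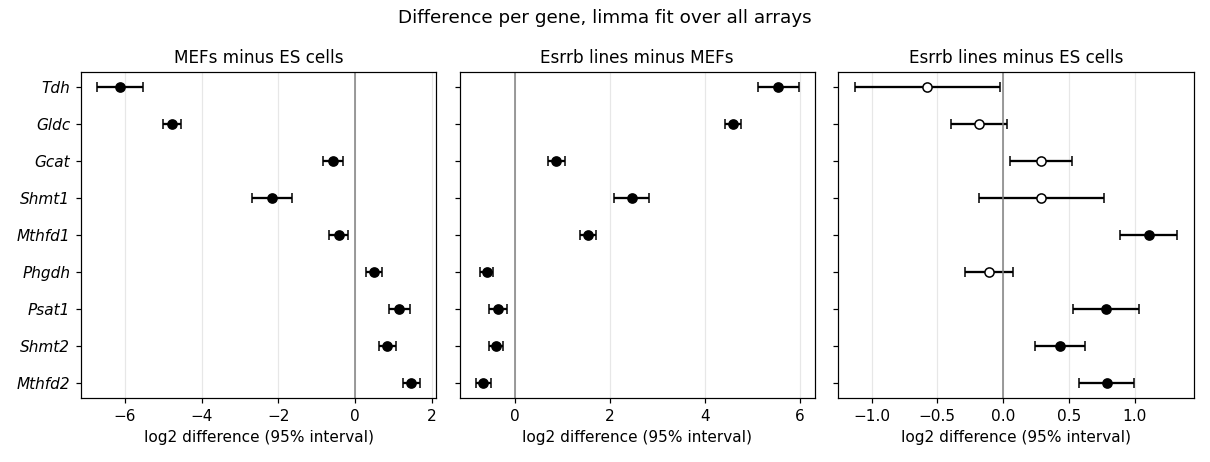
Log2 differences of the 9 tested members, with 95% intervals from the limma fit, in MEFs minus ES cells, Esrrb lines minus MEFs and Esrrb lines minus ES cells. Filled points were called and open points were not, and the horizontal scales differ between panels. Tdh and Gldc stand farthest from 0 in both comparisons with MEFs, and Mthfd1 stands farthest above 0 against ES cells.

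Threonine degradation was marked by a single gene that was on in every pluripotent group and off in fibroblasts. Tdh read 10.06 and 10.11 in OSE #T8, 9.84 and 10.27 in OSE #T9 and 9.34 and 10.24 in OSCE #13. It read 8.80 and 9.51 in OSCE #8 and 10.28 and 10.82 in OSCK, against 4.25 and 4.32 in Actin-GFP MEFs, 4.17 and 4.18 in Pou5f1-GFP MEFs and 9.86 and 10.84 in ES cells. All 12 ES and iPS arrays detected it and no MEF array did, so the fold against MEFs is a lower bound. This bound sets the mean of the brighter group against the lowest intensity of any detected probe on each MEF array, or the probe's own where higher. By it, Tdh was at least 43.3-fold lower in MEFs than in ES cells (adjusted p = 8.86e-11). It was at least 29.0-fold higher in the Esrrb lines and at least 49.7-fold higher in OSCK than in MEFs (adjusted p = 2.72e-12 and 6.94e-11).

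Among pluripotent groups Tdh was lowest in OSCE #8, whose 2 arrays lay below every other ES and iPS array except the first of OSCE #13. The difference of OSCE #8 from ES cells was -1.19 ± 0.33 (adjusted p = 0.0145), with -1.06 and -1.33 within the slides. It was not called without ES replicate 2, at -0.70 (adjusted p = 0.194), without OSCE #8 replicate 1, at -0.83 (adjusted p = 0.166), or with every gene tested (adjusted p = 0.0689). Against OSCK the difference of OSCE #8 was -1.39 ± 0.33 (adjusted p = 0.00772), with -1.48 and -1.30 within the slides. That call was lost without OSCE #8 replicate 1, at -1.03 (adjusted p = 0.108), and without OSCK replicate 2, at -1.12 (adjusted p = 0.0851). Summed pluripotency markers were also lowest of the lines in OSCE #8. Summed macrophage markers were 1886 to 1923 in OSCE #8, against 976 to 978 in OSCK and 727 to 763 in ES cells. Of 6 primitive endoderm markers, 4 were detected on both arrays of OSCE #8, against 2 in OSCK and 2 in ES cells. The part of these markers in the differences of OSCE #8 was not tested.

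For Tdh the Esrrb lines as a whole differed from ES cells by -0.58 ± 0.26 (95% interval -1.13 to -0.027, adjusted p = 0.132), which was not called. Replicate 2 read higher than replicate 1 in 8 of 8 groups, with a median gap of 0.49, the background values of MEFs included. The replicate number marks the slide only within a set of groups, and this gap was seen in both sets. With the replicate number as a block the adjusted p was 0.0183, below the threshold. The difference was -1.07 without ES replicate 1 and -0.088 without ES replicate 2, so its size changed with the ES array kept. Those fits had no block and set 1 ES array against both replicates of the lines, so the replicate gap entered the difference. How much of the change came from that gap was not tested.

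**Figure D2:**
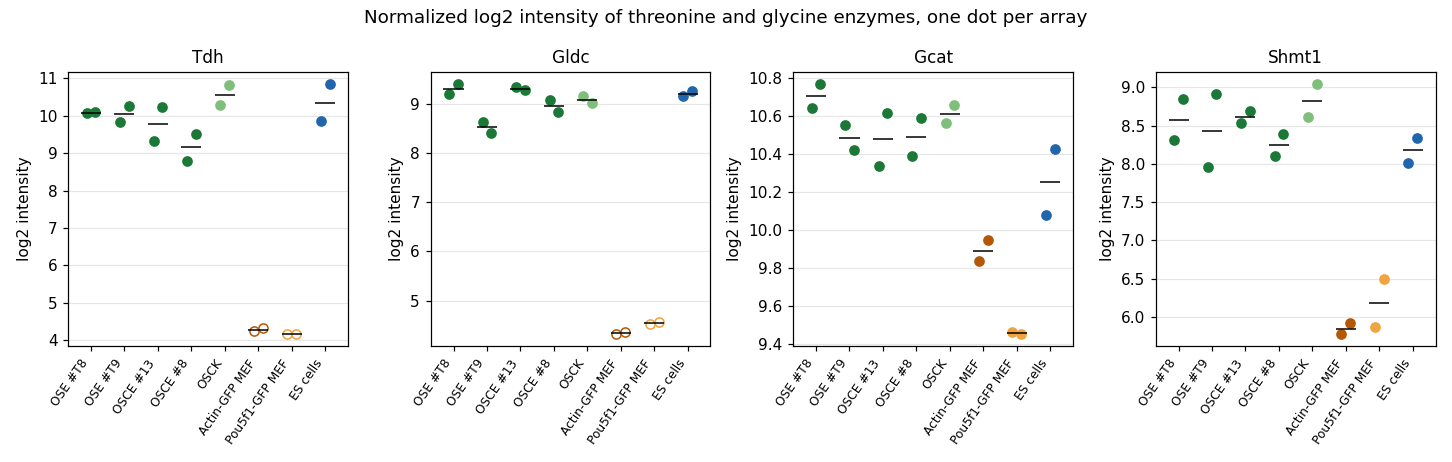
Log2 intensity of Tdh, Gldc, Gcat and Shmt1 on each of the 16 arrays. Open dots were not detected and bars are the mean of the 2 arrays of a group. Tdh and Gldc are undetected on all 4 MEF arrays, while Gcat and Shmt1 are lower there but detected.

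**Figure D3:**
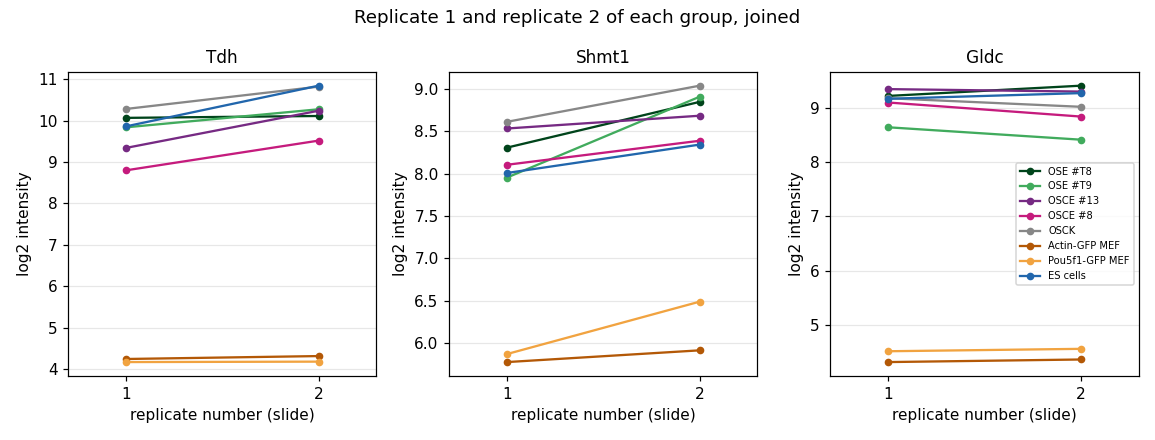
Log2 intensity of Tdh, Shmt1 and Gldc in replicate 1 and replicate 2 of each group, joined by a line. Within a set of groups, each replicate number stands for 1 slide. Tdh and Shmt1 read higher in replicate 2 in 8 of 8 groups, and Gldc in 4 of 8. These counts include the MEFs, where Tdh and Gldc are at background and their order says little.

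Gcat, the ligase that completes the pathway after Tdh, was detected on all 16 arrays. It read 10.64 and 10.77 in OSE #T8, 10.55 and 10.42 in OSE #T9, 10.34 and 10.62 in OSCE #13, 10.39 and 10.59 in OSCE #8 and 10.56 and 10.66 in OSCK. The MEFs were lower, with 9.84 and 9.95 in Actin-GFP MEFs and 9.46 and 9.45 in Pou5f1-GFP MEFs, against 10.08 and 10.43 in ES cells. All MEF arrays lay below all others. The difference of MEFs from ES cells was -0.58 ± 0.12 (adjusted p = 0.000666), a 1.49-fold fall, while Gcat was 1.82-fold higher in the Esrrb lines than in MEFs (adjusted p = 2.64e-07). Gcat was thus detected on all 4 MEF arrays, on which Tdh was at background.

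Small differences of Gcat from ES cells depended on the fit. Only OSE #T8 was called, at 0.45 ± 0.14 (adjusted p = 0.0316), and without ES replicate 1 it was 0.28 (adjusted p = 0.291). That call was also lost without either OSE #T8 array (adjusted p = 0.0612 and 0.171). With the replicate block, Gcat was called in the Esrrb lines (0.29 ± 0.11, adjusted p = 0.0789, 0.0329 with the block) and in OSCK (0.36 ± 0.14, 0.100 and 0.0428). For the Esrrb lines it was 0.11 (adjusted p = 0.675) without ES replicate 1 and 0.46 (adjusted p = 0.0376) without ES replicate 2, and in OSCK 0.18 (adjusted p = 0.552) and 0.53 (adjusted p = 0.0431). With the mean of its probes OSE #T8 was at 0.18 (adjusted p = 0.295), and with only the groups compared in the fit its adjusted p was 0.0897. A second Gcat probe was detected on 1 array and was not tested.

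Gldc, the decarboxylase of the glycine cleavage system, had the same on and off pattern as Tdh with closer replicates. It read 9.22 and 9.41 in OSE #T8, 8.64 and 8.41 in OSE #T9, 9.34 and 9.30 in OSCE #13, 9.10 and 8.84 in OSCE #8 and 9.17 and 9.02 in OSCK. No MEF array detected it, with 4.32 and 4.37 in Actin-GFP MEFs and 4.52 and 4.56 in Pou5f1-GFP MEFs, against 9.16 and 9.27 in ES cells. Gldc was at least 19.7-fold lower in MEFs than in ES cells (adjusted p = 5.19e-14). It was at least 17.4-fold higher in the Esrrb lines and at least 18.2-fold higher in OSCK than in MEFs (adjusted p = 6.44e-16 and 8.50e-14).

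OSE #T9 was the line with the lowest Gldc, and both of its arrays lay below all other ES and iPS arrays. Its difference from ES cells was -0.69 ± 0.13 (adjusted p = 0.00107), a 1.61-fold fall. The other 4 lines differed from ES cells by -0.25 (OSCE #8) to 0.10 (OSCE #13), none of them called. The Esrrb lines together differed by -0.19 ± 0.099 (95% interval -0.40 to 0.027, adjusted p = 0.220).

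Serine synthesis differed from this pattern, since Phgdh and the brighter Psat1 probe were higher in MEFs than in ES cells. Phgdh, the first enzyme of the pathway, read 7.79 and 7.67 in OSE #T8, 7.84 and 7.65 in OSE #T9, 7.95 and 7.96 in OSCE #13, 7.82 and 7.90 in OSCE #8 and 7.65 and 7.63 in OSCK. It read 8.49 and 8.41 in Actin-GFP MEFs and 8.35 and 8.45 in Pou5f1-GFP MEFs, against 7.93 and 7.93 in ES cells. Every MEF array lay above every other array. Phgdh was 1.41-fold higher in MEFs than in ES cells (0.49 ± 0.093, adjusted p = 0.000302), and differed from MEFs by -0.60 ± 0.066 in the Esrrb lines (adjusted p = 9.00e-07).

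Against ES cells Phgdh was not called in any line. OSCK, at -0.29 ± 0.11, had the lowest mean (adjusted p = 0.0826), and passed the threshold with an offset of 50 (0.0363), with no filter on dim probes (0.0325) and with the slide as a random block (0.0474). Psph, the phosphatase of the last step, had 1 probe, which was at background on all 16 arrays (4.19 to 4.44). Its transcript was therefore not measured in any group.

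Psat1, the aminotransferase of the middle step, read highest in MEFs and in the OSE lines on its brighter probe. The values were 11.63 and 11.94 in OSE #T8, 11.86 and 12.19 in OSE #T9, 11.22 and 11.31 in OSCE #13, 11.31 and 11.67 in OSCE #8 and 11.49 and 11.55 in OSCK. MEFs read 11.92 and 11.98 (Actin-GFP) and 11.98 and 12.14 (Pou5f1-GFP), against 10.87 and 10.84 in ES cells, which were the lowest of all groups. On this probe Psat1 was 2.21-fold higher in MEFs than in ES cells (1.14 ± 0.13, adjusted p = 1.71e-06) and 1.72-fold higher in the Esrrb lines than in ES cells (0.78 ± 0.12, adjusted p = 0.000170). Single lines differed from ES cells by 1.16 ± 0.15 in OSE #T9, 0.93 ± 0.15 in OSE #T8, 0.66 ± 0.15 in OSCK and 0.63 ± 0.15 in OSCE #8 (largest adjusted p = 0.00588). The OSCE #8 call was lost without its replicate 2, at 0.45 (adjusted p = 0.0913). OSCE #13, at 0.41 ± 0.15, was not called (adjusted p = 0.0702), but was with the replicate block (0.0176).

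The second Psat1 probe, also detected on all 16 arrays, did not show these differences. It read 8.67 and 8.35 in OSE #T8, 8.54 and 8.94 in OSE #T9, 8.04 and 8.49 in OSCE #13, 8.28 and 8.57 in OSCE #8 and 8.41 and 8.54 in OSCK. It read 8.58 and 8.87 in Actin-GFP MEFs and 11.16 and 11.51 in Pou5f1-GFP MEFs, against 9.95 and 10.06 in ES cells. With every probe as its own row, an analysis added after the values were seen, its differences were -1.52 ± 0.15 in the Esrrb lines against ES cells (adjusted p = 3.70e-06) and -2.61 ± 0.19 in Actin-GFP against Pou5f1-GFP MEFs (adjusted p = 3.99e-07). For MEFs against ES cells it was 0.028 ± 0.17 (adjusted p = 0.903). The probes therefore went in opposite directions in the Esrrb lines against ES cells, and the direction of Psat1 there is not settled. In that analysis of 21551 probes, 59.3% were called in MEFs against ES cells, 68% in the Esrrb lines against MEFs, 20.4% in the Esrrb lines against ES cells and 10.4% between the MEFs.

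The groups in which the second Psat1 probe read low were those with signal on the array's probe for enhanced GFP. That probe read 11.28 to 13.16 on the arrays of the 5 lines and 13.01 and 13.10 in Actin-GFP MEFs. It was at background in Pou5f1-GFP MEFs (4.25 and 4.25) and in ES cells (4.30 and 4.38). The EGFP probe was looked at after the Psat1 values were seen, and its part in the result was not tested.

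**Figure D4:**
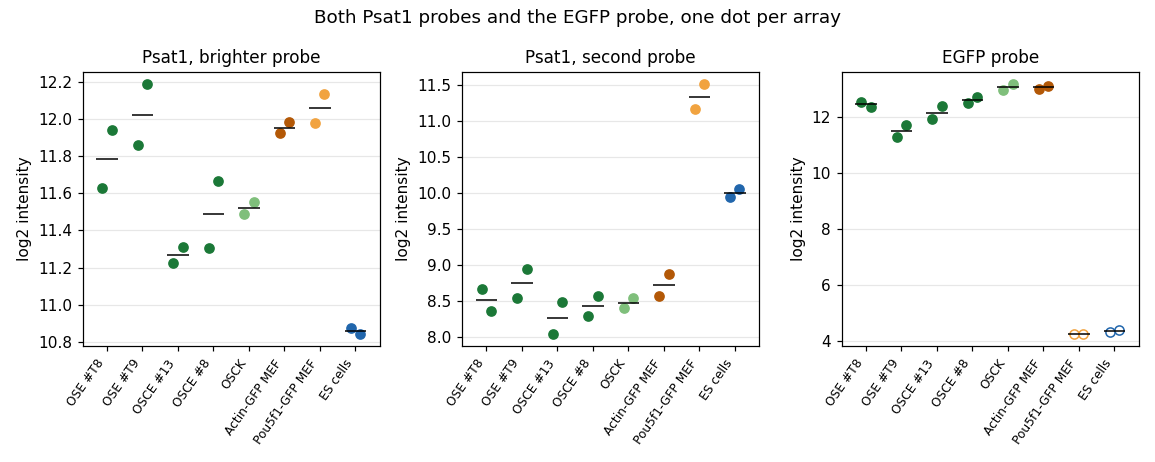
Log2 intensity of the brighter Psat1 probe, the second Psat1 probe and the EGFP probe on each of the 16 arrays, with open dots for arrays that did not detect the probe and bars for group means. The brighter Psat1 probe is lowest in ES cells. The second is highest in Pou5f1-GFP MEFs and ES cells, the groups in which EGFP is undetected.

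The hydroxymethyltransferases, which swap serine and glycine, went in opposite directions between MEFs and ES cells. Cytosolic Shmt1 read 8.31 and 8.85 in OSE #T8, 7.96 and 8.91 in OSE #T9, 8.54 and 8.69 in OSCE #13, 8.11 and 8.39 in OSCE #8 and 8.61 and 9.04 in OSCK. It read 5.78 and 5.91 in Actin-GFP MEFs and 5.87 and 6.49 in Pou5f1-GFP MEFs, against 8.01 and 8.34 in ES cells, so MEFs did not overlap with any other group. Shmt1 was 4.48-fold lower in MEFs than in ES cells (-2.16 ± 0.24, adjusted p = 1.79e-06). It was 5.48-fold higher in the Esrrb lines and 7.04-fold higher in OSCK than in MEFs (adjusted p = 5.63e-09 and 1.03e-07). Its second probe gave -3.09 ± 0.11 for MEFs against ES cells (adjusted p = 4.21e-12).

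Differences of Shmt1 between the lines and ES cells were small, and the probes disagreed on them. The brighter probe gave 0.29 ± 0.22 for the Esrrb lines (adjusted p = 0.422), and the second gave -0.35 ± 0.097 (adjusted p = 0.0185). On the brighter probe, replicate 2 read higher in 8 of 8 groups, with a median gap of 0.38, and on the second in 3 of 8. With the replicate block, Shmt1 was called in OSCK against ES cells (0.65 ± 0.28, adjusted p = 0.143, 0.00914 with the block) and in OSCE #8 against OSCK (-0.58 ± 0.28, 0.194 and 0.0179).

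Mitochondrial Shmt2 read 8.35 and 8.35 in OSE #T8, 8.14 and 8.09 in OSE #T9, 8.00 and 8.12 in OSCE #13, 7.77 and 7.61 in OSCE #8 and 7.78 and 7.67 in OSCK. MEFs read 8.12 and 8.24 (Actin-GFP) and 8.76 and 8.72 (Pou5f1-GFP), against 7.51 and 7.73 in ES cells. Pou5f1-GFP MEFs were above all other arrays, while Actin-GFP MEFs overlapped with the lines. Shmt2 was 1.79-fold higher in MEFs than in ES cells (0.84 ± 0.099, adjusted p = 2.88e-06), and its second probe gave 0.67 ± 0.15 (adjusted p = 0.000965).

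In the Esrrb lines Shmt2 exceeded ES cells by 0.43 ± 0.090 on the brighter probe (adjusted p = 0.00258), with overlapping arrays. Without ES replicate 1 this was 0.33 (adjusted p = 0.0924), and the second probe gave 0.098 ± 0.13 (adjusted p = 0.697). The called lines were OSE #T8 (0.73 ± 0.11, adjusted p = 0.000286), OSE #T9 (0.50 ± 0.11, 0.00601) and OSCE #13 (0.44 ± 0.11, 0.0135), which are also the lines on other slides than the ES cells. Without ES replicate 1, OSE #T9 and OSCE #13 were at 0.39 (adjusted p = 0.0772) and 0.33 (adjusted p = 0.146), and without its own replicate 2 OSCE #13 was at 0.38 (adjusted p = 0.115). With only the groups compared in the fit, both calls were lost (adjusted p = 0.0949 and 0.0648). With the mean of its probes, Shmt2 was at 0.18 (adjusted p = 0.252) in OSCE #13 and at 0.35 (adjusted p = 0.0268) in OSCK, where the brighter probe gave 0.11 ± 0.11 (adjusted p = 0.620).

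Mthfd1, the cytosolic folate enzyme, rose more than any other member in OSCK and in the Esrrb lines as a whole relative to ES cells, though in OSE #T9 Mthfd2 and the brighter Psat1 probe rose more. It read 9.13 and 8.91 in OSE #T8, 8.60 and 8.65 in OSE #T9, 8.97 and 8.85 in OSCE #13, 9.01 and 9.05 in OSCE #8 and 9.93 and 9.97 in OSCK. It read 7.14 and 6.85 in Actin-GFP MEFs and 7.77 and 7.68 in Pou5f1-GFP MEFs, against 7.67 and 7.92 in ES cells. All 10 iPS arrays lay above all 6 arrays of MEFs and ES cells. The difference from ES cells was 2.16 ± 0.13 in OSCK, a 4.47-fold rise (adjusted p = 2.27e-08), with 2.27 and 2.06 within the slides. In the Esrrb lines it was 1.11 ± 0.10 (adjusted p = 1.54e-06), ranging from 0.84 in OSE #T9 to 1.24 in OSCE #8, and it was called in each of the 4.

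Against MEFs, Mthfd1 was 2.91-fold higher in the Esrrb lines and 6.03-fold higher in OSCK (adjusted p = 1.49e-10 and 4.76e-11). MEFs and ES cells were closer to each other, at -0.43 ± 0.11 (adjusted p = 0.00355). There the arrays overlapped, and without ES replicate 2 the difference was -0.31 (adjusted p = 0.0829). Pou5f1-GFP MEFs (7.77 and 7.68) lay between the ES arrays (7.67 and 7.92), and the lower values were those of Actin-GFP MEFs (7.14 and 6.85). A second Mthfd1 probe was at background on all 16 arrays, so all Mthfd1 values rest on 1 probe.

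Mthfd2, the mitochondrial folate enzyme, read 11.19 and 11.07 in OSE #T8, 11.48 and 11.35 in OSE #T9, 10.91 and 10.78 in OSCE #13, 10.69 and 10.62 in OSCE #8 and 10.96 and 10.70 in OSCK. The highest values were in MEFs, with 11.77 and 11.60 in Actin-GFP MEFs and 11.73 and 11.64 in Pou5f1-GFP MEFs, against 10.29 and 10.16 in ES cells, the lowest group. The lines lay between ES cells and MEFs without overlap. Mthfd2 was 2.75-fold higher in MEFs than in ES cells (1.46 ± 0.11, adjusted p = 1.42e-08) and 1.73-fold higher in the Esrrb lines than in ES cells (0.79 ± 0.097, adjusted p = 2.70e-05). It differed from MEFs by -0.67 ± 0.075 in the Esrrb lines (adjusted p = 1.09e-06).

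Every line was called above ES cells for Mthfd2, in the order OSE #T9 (1.19 ± 0.12), OSE #T8 (0.91 ± 0.12), OSCE #13 (0.62 ± 0.12), OSCK (0.60 ± 0.12) and OSCE #8 (0.43 ± 0.12, adjusted p = 0.0190). The last was not called without ES replicate 2, at 0.36 (adjusted p = 0.133), without either of its own arrays (adjusted p = 0.106 and 0.0592) or with median centring (0.0544). OSCK was at 0.47 (adjusted p = 0.0517) without its replicate 1. The summed fibroblast markers were likewise higher in the lines than in ES cells, as given above. Their mean log2 intensity was 8.69 in OSE #T9, 8.54 in OSE #T8, 7.75 in OSCE #13, 7.40 in OSCE #8 and 7.96 in OSCK, against 7.50 in ES cells. Lum in OSCE #8 and Postn in OSCE #13 were undetected on both arrays. In ES cells 7 of the 9 markers were detected on both arrays, and none was undetected on both. The part of these markers in the higher Mthfd2 was not tested, nor in the values of the brighter Psat1 and Shmt2 probes.

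**Figure D5:**
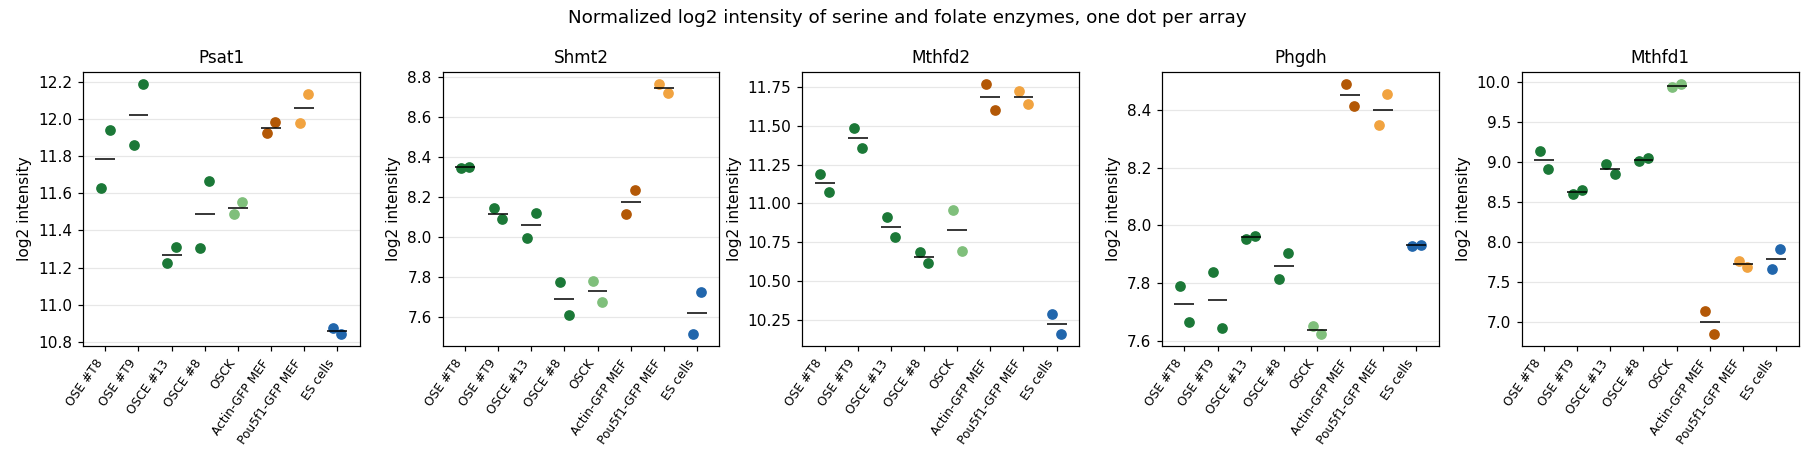
Log2 intensity of Psat1 (brighter probe), Shmt2, Mthfd2, Phgdh and Mthfd1 on each of the 16 arrays, with bars for group means. Mthfd2 is highest in MEFs and lowest in ES cells, and Mthfd1 is higher in all 10 iPS arrays than in MEFs and ES cells.

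Counted over the members, the Esrrb lines had 4 of 9 higher than ES cells and 0 lower, beside 22.5% of all genes called in either direction. Of these, 1 is Psat1 on its brighter probe, and with the mean of all probes of a gene the counts were 3 higher and 1 lower, with Psat1 the lower one at -0.37 (adjusted p = 0.0390). At an unadjusted p under 0.05 in limma, 5 were higher and 1, Tdh, was lower. OSCK had 3 higher and 0 lower, beside 16.9%, and 5 and 1 unadjusted. The 4 Esrrb lines had 3 higher and 1 lower in OSCE #8 (all genes 24.2%) and 4 higher and 1 lower in OSE #T9 (20.3%). OSE #T8 had 5 higher and 0 lower (20.7%), and OSCE #13 had 3 higher and 0 lower (19.4%), with 0 lower at an unadjusted p in both. With the mean of probes the counts were 3 and 1 in OSCK, 2 and 2 in OSCE #8, 3 and 1 in OSE #T9, 3 and 0 in OSE #T8 and 2 and 1 in OSCE #13. These comparisons share the 2 ES arrays. The next fit had 1 value each for ES cells and OSCK, so it did not measure the spread of either. When each line or MEF type counted as 1 replicate, limma called 0 members in the Esrrb lines against ES cells (3 unadjusted) and 0 in OSCK against ES cells (2 unadjusted).

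The line OSCE #8 was compared with OSCK on shared slides, which, by the usual reading of the names, sets a line made with Esrrb against one made with Klf4. Of 9 members, 2 were lower in OSCE #8 and 0 higher, beside 17.4% of all genes, and the counts at an unadjusted p under 0.05 in limma were the same. They were Tdh, given above, and Mthfd1, which was 1.90-fold lower (-0.92 ± 0.13, adjusted p = 0.000131), with -0.92 and -0.92 within the slides. With the mean of all probes of a gene 4 were lower and 0 higher. Shmt1 (-0.64, adjusted p = 0.0201) and Shmt2 (-0.42, adjusted p = 0.00983) were then called too. Their brighter probes gave -0.58 ± 0.28 (adjusted p = 0.194) and -0.035 ± 0.11 (adjusted p = 0.894). Each group is 1 line, so the factor set cannot be told apart from the line.

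Among the lines of the other slides, the OSE lines had 2 members higher and 1 lower than OSCE #13, beside 20.2% of all genes. Psat1 was higher on its brighter probe (0.64 ± 0.13, adjusted p = 0.00254), with all 4 OSE arrays above both OSCE #13 arrays. Mthfd2 was higher by 0.43 ± 0.11 (adjusted p = 0.0101), also without overlap. Gldc differed by -0.40 ± 0.11 (adjusted p = 0.0169), but OSE #T8 and OSCE #13 overlapped, and the low values were those of OSE #T9. With only these groups in the fit, Psat1 alone was called (Mthfd2 adjusted p = 0.0521, Gldc 0.0794). Mthfd2 was at 0.36 (adjusted p = 0.129) without OSCE #13 replicate 2. Gldc was at -0.38 (adjusted p = 0.121) and -0.42 (adjusted p = 0.0857) without the first or second OSCE #13 array, and at -0.35 (adjusted p = 0.0510) without OSE #T8 replicate 1.

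Between the MEFs, Actin-GFP cells had 2 members lower than Pou5f1-GFP cells and 0 higher, beside 11.5% of all genes, with 1 higher (Gcat) and 2 lower at an unadjusted p under 0.05 in limma. Mthfd1 was 1.66-fold lower (-0.73 ± 0.13, adjusted p = 0.00125), with -0.63 and -0.83 within the slides. Shmt2 was 1.48-fold lower on its brighter probe (-0.57 ± 0.11, adjusted p = 0.00349), with -0.65 and -0.49 within the slides, while its second probe gave -0.039 ± 0.17 (adjusted p = 0.953). Gcat, at 0.43 ± 0.14, had an adjusted p of 0.0607, and of 0.0209 with the replicate block. The members called changed with the probe choice. With the mean of all probes of a gene, Psat1 was called at -1.36 (adjusted p = 5.53e-05) and Shmt2 was not, at -0.30 (adjusted p = 0.0639). The brighter Psat1 probe gave -0.11 ± 0.15 (adjusted p = 0.794) and the second -2.61 ± 0.19 (adjusted p = 3.99e-07). Summed macrophage markers were 8117 to 8388 in Actin-GFP MEFs and 2062 to 2075 in Pou5f1-GFP MEFs, and their part in these differences was not tested.

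The rest of the network around the members was read from 7 lists with 59 genes, of which 48 were tested. In MEFs against ES cells 15 of the 48 were higher and 19 lower, 70.8% beside 61% of all genes called. The share in the Esrrb lines was 77.1% against MEFs, beside 69.1%, and 33.3% against ES cells, beside 22.5%. The enzymes of purine and thymidylate synthesis, which use the carbon units, were lower in MEFs in 7 of 7 cases, with a median of -1.09 beside -0.020 for all genes. Gart (-2.11 ± 0.13), Ppat (-1.58 ± 0.22) and Atic (-1.33 ± 0.12), enzymes of purine synthesis, fell most (largest adjusted p = 1.34e-05). All 7 were higher in the Esrrb lines than in MEFs, with a median of 1.15. Against ES cells, 3 of 7 were lower in the Esrrb lines, among them Gart (-0.52 ± 0.12) and the purine enzyme Adsl (-0.52 ± 0.11).

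ATF4, a transcription factor of the response to amino acid shortage, and its known targets moved the other way. Of 8 tested, 7 were higher in MEFs than in ES cells, with a median of 1.52, and 7 were lower in the Esrrb lines than in MEFs, with a median of -1.79. Each is a share of 87.5%, beside 61% and 69.1% of all genes called. The glutathione-degrading enzyme Chac1 (2.63 ± 0.11), the pseudokinase Trib3 (2.53 ± 0.11) and the transcription factor Atf5 (2.49 ± 0.10) rose most in MEFs (largest adjusted p = 2.54e-11). Against ES cells, 2 of 8 were higher and 1 was lower in the Esrrb lines, 37.5% beside 22.5% of all genes. Atf4 itself was higher (0.84 ± 0.20, adjusted p = 0.00760) and the stress gene Ddit3 lower (-0.75 ± 0.15, adjusted p = 0.00191). Ddit3 in OSCE #13 (8.42 and 8.30) was at the level of ES cells (8.40 and 8.31). The list was thus not uniform in the Esrrb lines against ES cells.

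Of 7 amino acid transporters, 4 were higher and 0 lower in MEFs than in ES cells, a share of 57.1% that is near that of all genes. The glycine transporter Slc6a9 (2.69 ± 0.16), the serine and alanine transporter Slc1a4 (2.45 ± 0.13) and the large neutral amino acid transporter Slc7a5 (1.26 ± 0.10) led (largest adjusted p = 4.31e-08). In the Esrrb lines 3 of 7 were higher than in ES cells and 0 lower, 42.9% beside 22.5% of all genes. The glutamine transporter Slc1a5 was at 1.20 ± 0.096 and Slc1a4 at 1.01 ± 0.11 (largest adjusted p = 1.26e-05).

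Folate cycle genes were mixed, with 1 of 11 tested higher and 5 lower in MEFs, a share of 54.5%, also near that of all genes. The mitochondrial enzyme Aldh1l2 was 14.2-fold higher in MEFs (3.82 ± 0.11, adjusted p = 5.22e-13). The folate receptor Folr1, undetected on all MEF arrays, was at least 10.8-fold lower (adjusted p = 3.30e-12), and Fpgs, which adds glutamates to folate, fell by 1.41 on the log2 scale (adjusted p = 2.35e-08). In the Esrrb lines against ES cells 0 of 11 were higher and 3 lower, including Fpgs (-0.40 ± 0.098) and Folr1 (-0.37 ± 0.12). This share of 27.3% is near the 22.5% of all genes. Folr1 was lowest in OSCE #8 (6.53 and 6.74), and in OSCE #13 (8.66 and 9.11) it lay above ES cells (8.33 and 8.37).

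Of the methionine cycle and transsulfuration list, 2 of 9 were higher and 5 lower in MEFs, 77.8% beside 61% of all genes. Cbs, which was undetected in MEFs, was at least 1.78-fold lower (adjusted p = 7.90e-07). Cth and Mat2a, the enzymes that make cysteine and S-adenosylmethionine, differed by -1.38 ± 0.17 and -1.08 ± 0.12 (largest adjusted p = 3.43e-06). Against ES cells, Cth was lower (-0.86 ± 0.15, adjusted p = 0.000667) and Ahcy higher (0.46 ± 0.13, adjusted p = 0.0238) in the Esrrb lines. Cth in OSE #T8 (7.36 and 7.50) overlapped with ES cells (7.34 and 7.86). Of the other parts of the glycine cleavage system, Amt was lower in MEFs (-0.82 ± 0.11, adjusted p = 1.51e-05), 1 of 2 tested. Of 4 further enzymes of serine, threonine and glycine, Pipox, a sarcosine oxidase undetected in MEFs, was at least 2.70-fold lower there, and Sardh, a sarcosine dehydrogenase, was higher (1.02 ± 0.13, adjusted p = 4.93e-06). Pipox was also lower in the Esrrb lines than in ES cells (-0.61 ± 0.10, adjusted p = 0.000483). In OSE #T9 (6.15 and 6.33) it overlapped with ES cells (6.39 and 6.30).

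Over the 16 arrays, the genes whose log2 values correlated most with those of Tdh were Zfp42 (Pearson r = 0.993), Tfcp2l1 (0.992), Rrp9 (0.992), Tdrd12 (0.991) and Nanog (0.990). Zfp42, Tfcp2l1 and Nanog are genes of the pluripotent state, the first and last of them on the marker list. In OSCE #8 the group means of all 5 were the lowest of the 5 lines, as for Tdh, with Zfp42 at 8.64 and Nanog at 11.13, against 10.32 and 11.91 in OSCK. The 5 genes were picked for their likeness to Tdh on these same arrays, so their low means in OSCE #8 follow in part from that choice. Among the members, Gldc (0.974), Shmt1 (0.964) and Gcat (0.895) followed Tdh most closely, and Phgdh ran opposite (-0.929). These correlations describe arrays that share the split between pluripotent cells and MEFs and the slide, and carry no test.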

How the data were processed

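Total RNA of 16 samples was hybridised to 1 array each, with 500 ng labelled per array. The raw table holds one signal intensity per probe and array, written by the authors with BeadStudio 3.2.6 and not normalized, per the file headers. The deposited detection score is a fraction, 1 minus the detection p, and the deposited numbers of beads (median 37, at least 5) and bead standard deviations, in intensity units, are given per probe. A further 64 columns and the deposited value table, whose probe names could not be paired with genes, were not used. Slides were read from the array names.

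Intensities were background-corrected with limma 3.58.1 in R 4.3.3 (normal-exponential model on detection p, offset 16), quantile normalized and put on log2. Target names were brought to current RefSeq symbols. A gene was represented by the probe with the highest mean and tested if that probe was detected at p under 0.01 on at least 2 arrays (15642 of 32089 genes). One limma fit with a mean per group gave 12 comparisons, with p-values adjusted by Benjamini and Hochberg within each and a gene called under 0.05. Groups were averaged with equal weight. The number of arrays limits the precision: the fit has 8 residual degrees of freedom and 6.23 from moderation. The fit was tested on simulated data with independent noise on each array. The simulation thus does not cover the deviations that same-numbered arrays share, which are given below.

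Within a set of groups, arrays of the same replicate number share a slide by the array names, and between the sets they do not. Deviations of same-numbered arrays correlated over 0.1 in 27 of 28 pairs of groups (0.0984 to 0.430), pairs across the sets included. The fit had no block, and the blocked p stands beside each call it changed. Fits with an array left out had no block either, so a gap between replicates can enter their differences. Named genes were all members, up to 3 genes per pathway list with the largest called difference in MEFs against ES cells and up to 2 in the Esrrb lines against ES cells, and the 5 named genes most like Tdh, with predicted and clone names passed over. The members and lists were chosen with earlier results of these data known. Alternatives covered the background correction, the normalization, the filter, the probe choice, blocks, the arrays in the fit and leaving out each array.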

Additional observations from a re-analysis of the deposited data

Results flagged for a closer look

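The 7 differences between lines or MEF types listed here are those that passed the threshold, with 9 members tested in each comparison. Between Actin-GFP and Pou5f1-GFP MEFs, where 11.5% of all genes were called, these were Shmt2 (-0.57 ± 0.11) and Mthfd1 (-0.73 ± 0.13). The Shmt2 value is that of the brighter probe, and the second gave -0.039 ± 0.17. Between OSCE #8 and OSCK (17.4% of all genes) they were Tdh (-1.39 ± 0.33) and Mthfd1 (-0.92 ± 0.13). Between the OSE lines and OSCE #13 (20.2% of all genes) they were Gldc (-0.40 ± 0.11), Psat1 on its brighter probe (0.64 ± 0.13) and Mthfd2 (0.43 ± 0.11). The calls of Tdh, Gldc and Mthfd2 were lost in some alternative fits, as given above. All are log2 differences from limma, with 2 arrays per group.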

How the results depend on the processing

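Over all alternatives, 2670 values of single members kept their direction and their side of the threshold, 47 lost their call, 33 gained one and 31 changed sign. Of these, 6 were called in at least 1 of the fits, all Psat1 against ES cells with the mean of its probes: -0.37 in the Esrrb lines, -0.28 in OSE #T8, -0.048 in OSE #T9, -0.66 in OSCE #13, -0.47 in OSCE #8 and -0.43 in OSCK. The other 25 were called in neither fit. With the mean of probes, 5 of them were Shmt1 against ES cells (-0.030 in the Esrrb lines, -0.30 in OSCE #8, -0.069 in OSE #T9), Shmt2 in OSCE #8 against ES cells (-0.070) and Gcat in OSE against OSCE #13 (-0.0040). The other 20 came with 1 array left out, where against ES cells Tdh ranged from -0.29 to 0.69 in OSCK, -0.75 to 0.23 in OSE #T8 and -0.79 to 0.19 in OSE #T9, Shmt1 from -0.096 to 0.24 in OSCE #8 and -0.22 to 0.73 in OSE #T9, and Shmt2 from -0.035 to 0.18 in OSCE #8. Likewise, in OSCE #8 against OSCK Gldc ranged from -0.26 to 0.00026, Psat1 from -0.21 to 0.14 and Shmt2 from -0.12 to 0.046. In OSE against OSCE #13 Tdh ranged from -0.17 to 0.73, Gcat from -0.023 to 0.26 and Shmt1 from -0.34 to 0.13, and between the MEFs Phgdh from -0.0032 to 0.11 and Mthfd2 from -0.080 to 0.083. The mean of probes also gave 3 members called in OSE #T8 against ES cells (5 in the report) and 4 in OSCE #8 against OSCK (2). In OSCK against ES cells the replicate block gave 5 and the slide as a random block 5 (3). The replicate block ended no call, and the calls it added are given with their p in the report. With the groups compared alone in the fit, OSE against OSCE #13 had 1 (3), and all genes called were 1933 (3154), with 1564 (3176) in OSE #T9 against ES cells. With lines as replicates, members called were 5 (9) in MEFs against ES cells, 0 (4) in the Esrrb lines and 0 (3) in OSCK against ES cells, and all genes called were 4653 (9539), 88 (3521) and 37 (2647), with 1202 and 949 at an unadjusted p under 0.05 in the last pair, and 6814 (10801) and 4661 (9624) in the Esrrb lines and OSCK against MEFs. Of those called, 30.7% and 35.1% were higher in the Esrrb lines and OSCK against ES cells (49.9% and 48.0% in the report's fit). Leaving out 1 array each gave 2 to 4 members in OSCE #8 against ES cells, 1 to 2 in OSCE #8 against OSCK and 1 to 4 in OSE against OSCE #13. All genes called fell to 2133 in the Esrrb lines against ES cells without either ES array. Without ES replicate 2 they were 2027 in OSE #T9 against ES cells, and without OSCK replicate 2 they were 1740 in OSCK against ES cells. In OSCE #8 against OSCK they were 1778 without OSCK replicate 1 and 1770 and 1780 without either OSCE #8 array (2721). In OSE against OSCE #13 they were 1901 and 1743 without either OSCE #13 array. Between the MEFs they were 1140 without Actin-GFP replicate 1 and 1129 without Pou5f1-GFP replicate 1 (1795). Median centring moved the median of all genes in OSCK against MEFs to 0.15, beside 0.023 in the report's fit. The lone array left in a group was assumed to vary like the others. The authors' value table could not be run as an alternative. The cause of these changes was not tested. The dim signal of Psph, and of Tdh and Gldc in MEFs, allows no more than bounds.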

Other observations

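The single line OSCK differed from ES cells in 10 of 48 genes of the surrounding network, 20.8% beside 16.9% of all genes called, so the share is near that of all genes. Of the amino acid transporters 3 of 7 were higher and 0 lower, with Slc1a5 at 1.15 ± 0.12, Slc7a5 at 0.45 ± 0.12 and Slc1a4 at 0.48 ± 0.15 (largest adjusted p = 0.0324 in limma). Of the methionine cycle and transsulfuration list 2 of 9 were higher, Cbs (0.69 ± 0.18) and Ahcy (0.63 ± 0.17), and 1 was lower, Cth (-0.86 ± 0.19). The purine enzyme Gart (-0.66 ± 0.15), the sarcosine oxidase Pipox (-0.84 ± 0.13) and the stress gene Ddit3 (-0.71 ± 0.19) were lower. Against MEFs, OSCK had 7 of 7 purine and thymidylate genes higher and 6 of 8 genes of the ATF4 list lower, while 61.5% of all genes were called in either direction.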
